A study of Homo sapiens with 8 samples.

Results

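Voltage-gated sodium and calcium channels were examined at the transcript level in MP38, an established BAP1-mutant uveal melanoma (UM) cell line. The genes were chosen by their symbols alone: the alpha subunits of sodium channels (SCN genes ending in A), their beta subunits (SCN genes ending in B), the alpha1 subunits of calcium channels (CACNA1 genes), and the alpha2delta (CACNA2D), beta (CACNB) and gamma (CACNG) subunits. In all, 40 of the 35238 gene symbols in the count table matched, of which 20 encode pore-forming and 20 auxiliary subunits. Cells were exposed for 24 h to romidepsin or quisinostat, each at 40 nM, to mivebresib at 1200 nM, or to 0.1% DMSO as the control, and each of the 4 groups held 2 bulk RNA libraries from separate wells. Romidepsin and quisinostat inhibit histone deacetylases (HDAC), the enzymes that remove acetyl groups from histones, and mivebresib blocks the bromodomains through which BET proteins bind acetylated histones. All results are from this single cell line, and the doses had been chosen by the study to change cell morphology within that time without excessive cell death.

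Voltage-gated sodium channels open when the membrane depolarises and carry the rising phase of the action potential. Their alpha subunit forms the whole pore, and the beta subunits, single-pass membrane proteins, tune gating, bring channels to the surface and act as cell adhesion molecules. Voltage-gated calcium channels couple depolarisation to contraction, secretion and transcription. Their alpha1 subunits fall into the L-type CaV1, the presynaptic CaV2 and the low-threshold T-type CaV3 families. The intracellular beta and extracellular alpha2delta subunits carry the CaV1 and CaV2 channels to the membrane, whereas most gamma subunits are better known as partners of AMPA-type glutamate receptors. These channels are known chiefly from neurons and from skeletal and heart muscle. Melanocytes derive from the neural crest and are not classed as excitable cells.

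The start regions of 5 members are shown as examples, and they do not span the full range among the members. CACNA1B, CACNA2D3, CACNA1C and SCN8A rose with quisinostat, and SCN1A stayed near the limit of detection in every group. Each line runs 5′ to 3′ on the gene's own strand, 300 bases in all that reach from upstream of the start given by RefSeq on GRCh38.p14 to just past it, with every CG dinucleotide in capitals. The positions are chr9:137877532-137877831 on the plus strand for CACNA1B, chr3:54122302-54122601 on the plus strand for CACNA2D3, chr12:51590983-51591282 on the plus strand for SCN8A, chr12:2052737-2053036 on the plus strand for CACNA1C and chr2:166127971-166128270 on the minus strand for SCN1A.
CACNA1B: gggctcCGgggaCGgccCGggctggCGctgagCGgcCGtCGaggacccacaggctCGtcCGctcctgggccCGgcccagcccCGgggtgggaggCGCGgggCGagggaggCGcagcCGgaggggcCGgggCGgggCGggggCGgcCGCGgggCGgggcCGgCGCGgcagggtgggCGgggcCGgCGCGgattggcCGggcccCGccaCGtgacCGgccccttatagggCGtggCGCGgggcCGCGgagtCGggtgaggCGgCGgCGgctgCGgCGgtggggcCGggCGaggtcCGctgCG
CACNA2D3: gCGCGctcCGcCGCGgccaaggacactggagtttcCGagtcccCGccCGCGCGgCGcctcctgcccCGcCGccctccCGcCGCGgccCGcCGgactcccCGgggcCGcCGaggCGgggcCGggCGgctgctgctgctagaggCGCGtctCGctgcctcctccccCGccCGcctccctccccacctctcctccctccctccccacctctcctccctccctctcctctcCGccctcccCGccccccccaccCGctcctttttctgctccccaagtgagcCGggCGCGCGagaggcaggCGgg
SCN8A: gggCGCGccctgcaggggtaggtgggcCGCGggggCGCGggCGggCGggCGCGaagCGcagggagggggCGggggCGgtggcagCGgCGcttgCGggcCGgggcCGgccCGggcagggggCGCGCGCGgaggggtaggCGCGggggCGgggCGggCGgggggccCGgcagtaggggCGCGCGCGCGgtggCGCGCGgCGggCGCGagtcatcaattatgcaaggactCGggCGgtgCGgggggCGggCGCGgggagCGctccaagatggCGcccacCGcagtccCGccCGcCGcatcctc
CACNA1C: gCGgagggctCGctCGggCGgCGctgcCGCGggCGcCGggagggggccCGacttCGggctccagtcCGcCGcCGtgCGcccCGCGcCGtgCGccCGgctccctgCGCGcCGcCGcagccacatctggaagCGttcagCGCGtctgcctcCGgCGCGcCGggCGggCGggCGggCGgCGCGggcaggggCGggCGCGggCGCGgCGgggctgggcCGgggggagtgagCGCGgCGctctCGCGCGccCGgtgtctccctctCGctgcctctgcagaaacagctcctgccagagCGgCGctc
SCN1A: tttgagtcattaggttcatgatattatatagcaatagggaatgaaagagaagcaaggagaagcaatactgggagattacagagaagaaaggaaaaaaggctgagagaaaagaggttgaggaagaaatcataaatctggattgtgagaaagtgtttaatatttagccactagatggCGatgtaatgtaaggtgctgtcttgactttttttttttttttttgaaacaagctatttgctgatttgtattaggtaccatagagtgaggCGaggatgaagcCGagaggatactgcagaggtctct
The window held 49 CG dinucleotides in CACNA1B, 37 in CACNA2D3, 52 in SCN8A and 54 in CACNA1C, against 3 in SCN1A and a median of 14 over the 35116 start regions of the RefSeq table. Over the 26 members found there the median was 20. The GC box, GGGCGG on either strand, occurred in 44.95% of all these regions and in 65.4% of those of the 26 members. It was found 5 times in CACNA1B, 6 times in CACNA2D3, 10 times in SCN8A, 6 times in CACNA1C and not at all in SCN1A. CpG-rich starts were not limited to members that changed: CACNA1D, which did not pass the test with any drug, had 56 CG dinucleotides. Nor were CpG-poor starts limited to members that did not change: CACNA2D2 and CACNA1I, which rose with quisinostat, had 5 and 6. The RefSeq table held 26 of the 40 members, too few to compare the pore-forming with the auxiliary subunits, and which start site MP38 cells use was not measured.

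Total counts ran from 28483235 to 29359024 per library, so depth was nearly equal, and the precision was limited by having 2 libraries per group. The DMSO libraries differed from each other more than those of any drug group (chi-square per degree of freedom 58.1 against 9.52 to 9.79). Melanocytic markers were abundant in the controls, with summed levels of 4191 to 5447 CPM (counts relative to a common library total, scaled by TMM factors throughout) for MLANA, PMEL, TYRP1, DCT, MITF and SOX10, although DCT itself had at most 5 counts in any library. That sum was 3557 to 4103 with quisinostat, 3695 to 3773 with mivebresib and 4734 to 5022 with romidepsin. TYRP1 made up most of it by counts and did not pass with any drug. MITF, SOX10 and MLANA fell with quisinostat (log2 FC -1.39, -0.92 and -1.05) and with mivebresib (-1.47, -1.93 and -1.33), PMEL also fell with mivebresib, and SOX10 fell with romidepsin (-0.39, adjusted p = 0.0141). The summed level of 6 neuronal markers (SNAP25, SYT1, STMN2, ELAVL4, RBFOX3 and GAP43) was 1.204 to 1.351 CPM with DMSO, 4.26 to 4.79 with romidepsin, 18.1 to 19.3 with quisinostat and 1.21 to 1.40 with mivebresib. Of these 6, SNAP25, SYT1, STMN2 and RBFOX3 could be tested. All 4 rose with quisinostat, beside 28.0% of all genes, while ELAVL4 stayed at or under 3 counts in every library. STMN2 (1 and 0 counts with DMSO) and RBFOX3 (6 and 7) had enough counts to be tested only through a drug group, which favours a rise. The skeletal muscle list was at 1.32 to 1.63 CPM with DMSO and 3.09 to 3.26 with quisinostat. Most of that difference was in DES, with 24 and 10 counts with DMSO and 84 and 76 with quisinostat. ACTA1, the other tested member, did not pass with quisinostat (log2 FC -0.82, adjusted p = 0.147). MYH1 and MYOG stayed at or under 3 counts throughout. The cardiac list stayed between 0.177 and 0.570 CPM in all 8 libraries, with MYH6 and MYH7 at or under 3 counts. The fibroblast list ran from 1.98 to 2.48 CPM with DMSO and from 8.43 to 10.9 with quisinostat. COL1A1 made up nearly all of the sum with quisinostat. With DMSO it had 40 and 45 counts beside 10 and 18 for PDGFRB. PDGFRB did not pass with quisinostat (log2 FC -1.07, adjusted p = 0.176). The part of these shifts in the channel results was not tested, and in bulk RNA a change in the number of cells of a type and a change in RNA per cell cannot be told apart.

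Of the 40 subunit genes, 24 had enough counts to be tested among 15085 genes, 12 pore-forming and 12 auxiliary. The remaining members were 4 under the filter on low counts (SCN2A, SCN10A, SCN2B and CACNG5) and 12 with at most 3 counts in every library. The latter were SCN3A, SCN7A, SCN11A, CACNA1E, CACNA1F and CACNA1S among the pore-forming subunits, and CACNA2D1, CACNA2D4, CACNG1, CACNG2, CACNG3 and CACNG6 among the auxiliary ones. The members with more than 3 counts in both libraries of a group numbered 19 with DMSO, 21 with romidepsin, 20 with mivebresib and 25 with quisinostat. The filter asks for about 10 counts in at least 2 libraries, and 16 members met it within the controls alone. The other 8 (CACNA1I, SCN1A, SCN4A, CACNA2D3, CACNB2, CACNB4, CACNG7 and SCN4B) met it only through a drug group, so counts over all 24 members are a description that favours higher values.

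**Figure D1:**
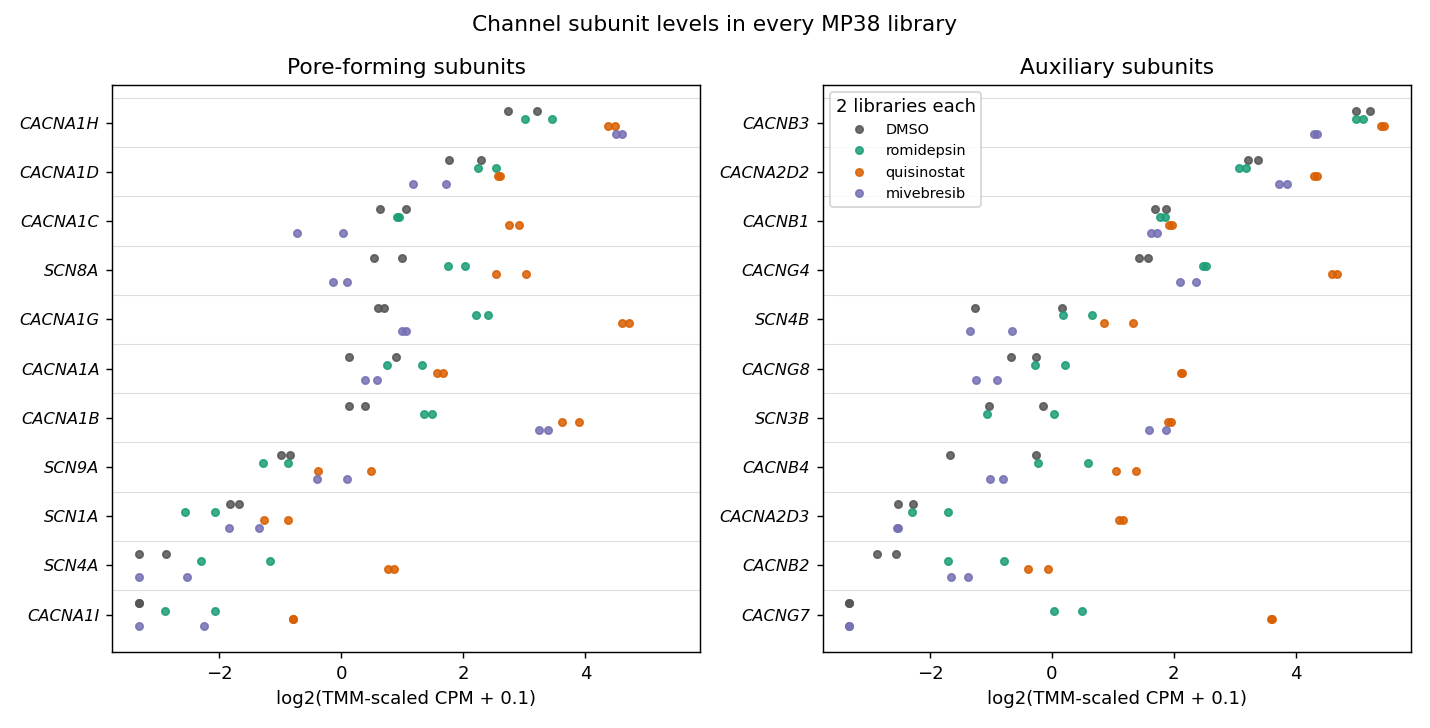
Level of 22 tested subunits in every library, as log2 of TMM-scaled CPM plus 0.1, with 2 points per group in grey (DMSO), green (romidepsin), orange (quisinostat) and purple (mivebresib). The quisinostat points are centred to the right of the DMSO points for all 22 genes, and CACNG7 has no counts with DMSO or mivebresib.

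The comparison of each drug with DMSO asked which subunits changed expression under HDAC or BET inhibition. By adjusted p alone, quisinostat raised 21 of the 24 tested subunits, beside 28.0% of all genes, and romidepsin raised 6, beside 15.2%. Mivebresib raised 6, a share close to the 22.2% of all genes, and lowered 2, beside 24.1%. The text uses a looser and a stricter rule: an adjusted p below 0.05 in edgeR's quasi-likelihood test, for which "rose" and "fell" are written, and the stricter one that also asks for a log2 fold change (log2 FC) beyond 1.5 in either direction, for which "called" is written. The 3 comparisons share the same DMSO libraries, so they are not independent of each other.

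With quisinostat, 14 of the 24 tested subunits were called higher, beside 11.2% of all genes, and none was called lower, beside 1.03% of all genes. By adjusted p alone 21 rose, beside 28.0% of all genes, and none fell, beside 25.1%. The members that did not pass were CACNA1D, CACNB1 and SCN1A. Among the 16 members that met the filter in the controls, 14 rose and 7 were called higher. DESeq2 and limma-voom each also called 14 higher and none lower, and no member was lower at an unadjusted p below 0.05 with any of these tools.

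With romidepsin, 3 subunits were called higher (CACNA1G, CACNB2 and CACNG7), beside 3.77% of all genes, and none was called lower, beside 0.312%. By adjusted p alone 6 rose, adding CACNA1B, SCN8A and CACNG4, beside 15.2% of all genes, and none fell, beside 15.8%. Among the 16 members that met the filter in the controls 4 rose, to be read beside the 15.2% of all genes. Of the same 16, 1 (CACNA1G) was called higher, beside 3.77%. The count at an unadjusted p below 0.05 was 9 higher and 0 lower with edgeR, and DESeq2 and limma-voom gave 0 lower as well. Without the second DMSO library 5 members were called higher, and without the first 2 were.

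With mivebresib, CACNA1B, CACNA1H and SCN3B were called higher, 3 members beside 3.96% of all genes, and none was called lower, beside 4.36%. By adjusted p alone 6 rose, CACNA2D2 and CACNG4 among them, beside 22.2% of all genes, and 2 fell (CACNA1C and CACNB3), beside 24.1%. limma-voom called 4 members higher and DESeq2 called 3, and both called none lower. At an unadjusted p below 0.05 edgeR and DESeq2 each counted 4 lower members and limma-voom 2.

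Pore-forming and auxiliary subunits were counted separately. With quisinostat 10 of 12 pore-forming and 11 of 12 auxiliary subunits rose, beside 28.0% of all genes. Called higher were 6 and 8 of them, beside 11.2% of all genes. Among members that met the filter in the controls, 8 of 9 pore-forming and 6 of 7 auxiliary ones rose. Of these, 4 pore-forming and 3 auxiliary members were called higher. With romidepsin 3 of 12 in each class rose, beside 15.2% of all genes. With mivebresib 3 of 12 in each class rose, a share close to the 22.2% of all genes, and 1 of each fell, beside 24.1%. Over the 9 pore-forming members that met the filter in the controls, the median log2 FC was 0.35 with romidepsin, 1.45 with quisinostat and 0.39 with mivebresib. Over the 7 such auxiliary members the medians were 0.14, 1.04 and 0.03. Over all 12 tested members of each class the medians with quisinostat were 1.74 (pore-forming) and 2.44 (auxiliary), the opposite order, and the same with CACNA1I and CACNG7 set at their bounds. Of these, 5 auxiliary and 3 pore-forming members met the filter only through a drug group. The medians over all 15085 genes were -0.01 with romidepsin, 0.01 with mivebresib and -0.004 with quisinostat. The order of the classes with quisinostat thus depended on which members were counted.

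**Figure D2:**
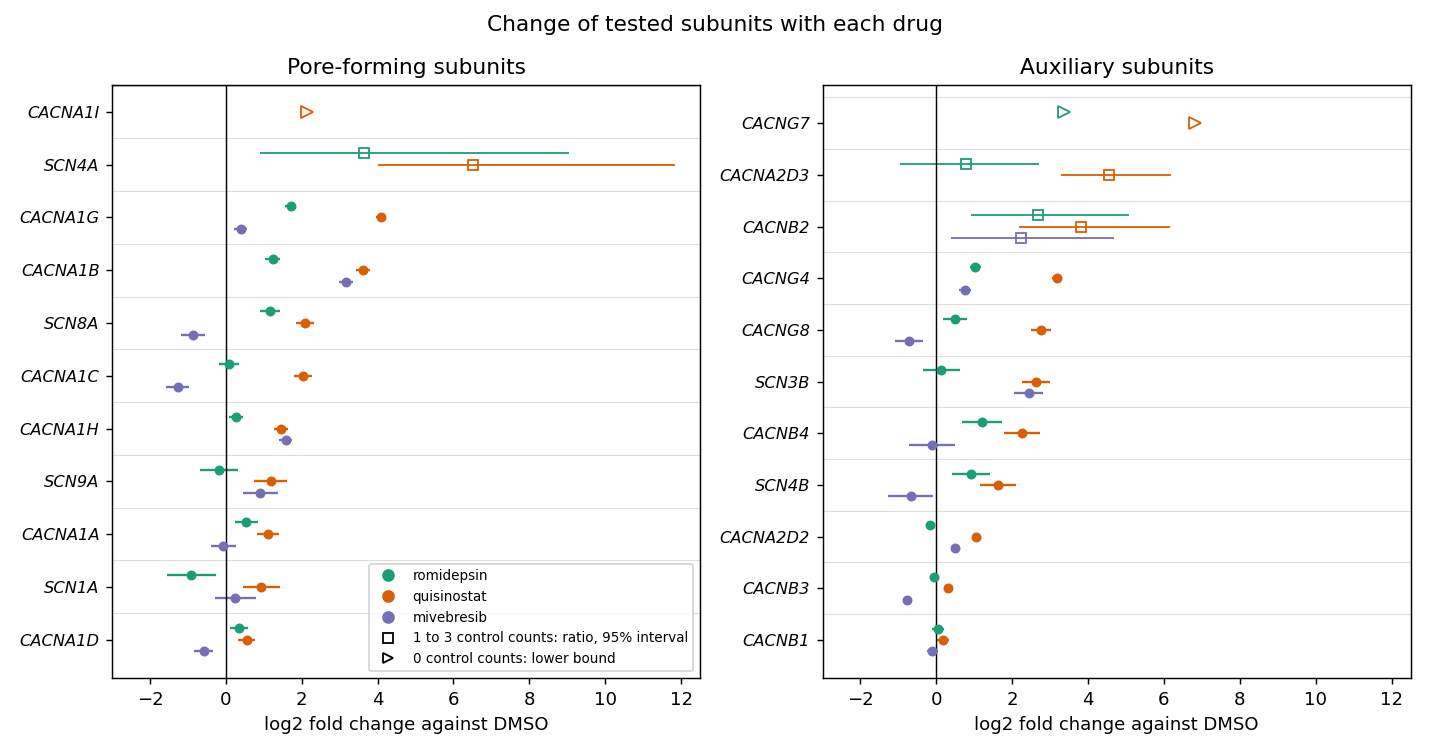
Log2 fold change against DMSO of 11 pore-forming and 11 auxiliary subunits tested, by drug. Circles with bars are fitted values ± SE, squares are ratios of counts with 95% counting intervals where no control library exceeded 3 counts, and triangles are lower bounds where both control libraries were at 0. Pairs with both groups at or under 3 counts, or with a bound not above 1, are left out. All quisinostat circles lie right of 0, and mivebresib circles lie on both sides.

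Among the sodium channel alpha subunits, SCN8A, which brain neurons concentrate at the axon initial segment, had 38 and 52 counts with DMSO, 116 and 95 with romidepsin, 180 and 254 with quisinostat, and 22 and 27 with mivebresib. Romidepsin and quisinostat libraries were all above the controls and mivebresib libraries were both below them. Its log2 FC was 1.16 ± 0.26 (SE) with romidepsin (adjusted p = 0.0108) and 2.09 ± 0.25 with quisinostat (adjusted p = 0.000184). With mivebresib the value was -0.86 ± 0.32 (adjusted p = 0.0528), just outside the threshold, and it passed with DESeq2 (adjusted p = 0.0472). The rise with romidepsin did not pass without the first romidepsin library (adjusted p = 0.076). SCN8A is the gene with 52 CG dinucleotides in its start region.

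SCN4A, the skeletal muscle alpha subunit, had 0 and 1 counts with DMSO, 10 and 3 with romidepsin, 54 and 50 with quisinostat, and 2 and 0 with mivebresib. It had at most 10 counts outside quisinostat, with which it rose (adjusted p = 0.00035). The ratio of counts was 91.8 with a 95% counting interval of 16.1 to 3659, so the size of the rise is poorly bounded. With romidepsin the ratio was 12.4 (interval 1.87 to 528, adjusted p = 0.0648).

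SCN9A, an alpha subunit of peripheral sensory neurons, rose with quisinostat by a log2 FC of 1.18 ± 0.44 (adjusted p = 0.0477). Leaving out any library but the first of quisinostat raised the adjusted p above the threshold (0.0566 to 0.378), as did DESeq2 (0.0927). SCN1A, a brain alpha subunit, had 2 to 14 counts in any library and passed with no drug. SCN2A, another brain subunit, had no counts outside quisinostat, where it had 7 and 1.

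Among the L-type CaV1 subunits, CACNA1D, found in neurons, endocrine cells and the cardiac pacemaker, was the highest per kb in every group. It had 93 and 131 counts with DMSO, 165 and 134 with romidepsin, 184 and 187 with quisinostat, and 59 and 89 with mivebresib. Its log2 FC was 0.35 ± 0.23 with romidepsin, 0.55 ± 0.23 with quisinostat (adjusted p = 0.0716) and -0.59 ± 0.25 with mivebresib (adjusted p = 0.0821), none past the test. The quisinostat value passed without the second DMSO library (adjusted p = 0.012) and the mivebresib value without the first (adjusted p = 0.0188). DCP1A, an mRNA decapping gene that overlaps CACNA1D on the opposite strand, averaged 1878 counts per library, so reads counted without regard to strand could have reached CACNA1D. CHDH, which also overlaps it on the opposite strand, averaged 157 counts and had log2 FC of 0.50 with quisinostat and -0.62 with mivebresib (adjusted p = 0.0739 and 0.0523), beside a log2 FC of -0.57 with quisinostat for DCP1A (adjusted p = 0.0004).

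CACNA1C, the L-type pore of heart and smooth muscle and of many neurons, moved in opposite directions with quisinostat and mivebresib. It had 41 and 54 counts with DMSO, 53 and 52 with romidepsin, 209 and 232 with quisinostat, and 25 and 14 with mivebresib, with no overlap between the last 2 groups and the controls. It rose with quisinostat (log2 FC 2.03 ± 0.23, 4.09-fold, adjusted p = 0.000139) and fell with mivebresib (-1.27 ± 0.30, adjusted p = 0.00867), and was at 0.08 ± 0.26 with romidepsin. Without the second mivebresib library the fall did not pass (-0.90, adjusted p = 0.058), and without the first it was large enough to be called lower. DCP1B, which overlaps CACNA1C on the opposite strand, averaged 297 counts and had a log2 FC of 0.09 with quisinostat (adjusted p = 0.595) and -0.34 with mivebresib (adjusted p = 0.0731).

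The CaV2 family, whose channels trigger transmitter release at synapses, was shared by CACNA1A, the P/Q-type pore, and CACNA1B, the N-type pore, in the controls. CACNA1B led by level per kb in the first DMSO library (51.5% of the family's sum) and CACNA1A in the second (57.4%). With each drug CACNA1B led in both libraries, at 57.9% with romidepsin, 88.8% with mivebresib and 82.7% with quisinostat. CACNA1E, the R-type pore, had at most 2 counts in any library.

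CACNA1B had 28 and 33 counts with DMSO, 79 and 71 with romidepsin, 385 and 467 with quisinostat, and 255 and 288 with mivebresib. Every drug library was above both controls. It rose with all 3 drugs: log2 FC 1.23 ± 0.21 with romidepsin (2.34-fold, adjusted p = 0.00324), 3.62 ± 0.18 with quisinostat (12.3-fold, adjusted p = 2.6e-06) and 3.16 ± 0.18 with mivebresib (8.94-fold, adjusted p = 7.04e-06). CACNA1A rose less with quisinostat, from 1.37 ± 0.54 to 2.97 ± 0.17 CPM (SD, n = 2, log2 FC 1.11 ± 0.30, adjusted p = 0.0128). That change did not pass without the first DMSO library (adjusted p = 0.0577) or the second quisinostat library (adjusted p = 0.0715). The summed CaV2 level per kb was 0.245 ± 0.069 with DMSO, 0.455 ± 0.075 with romidepsin, 1.67 ± 0.21 with quisinostat and 1.13 ± 0.09 with mivebresib (SD, n = 2).

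The T-type CaV3 channels, which open at low voltage and drive rhythmic firing, were the most abundant calcium channel pores in the controls, and CACNA1H made up 84.9% of their summed level per kb. CACNA1H had 185 and 249 counts with DMSO, 316 and 231 with romidepsin, 652 and 698 with quisinostat, and 615 and 671 with mivebresib. Quisinostat and mivebresib libraries were all above the controls and a single romidepsin library lay between them. Its log2 FC was 1.45 ± 0.18 with quisinostat (2.74-fold, adjusted p = 0.000225), 1.58 ± 0.18 with mivebresib (2.98-fold, adjusted p = 0.000182) and 0.27 ± 0.19 with romidepsin (adjusted p = 0.306). The romidepsin value passed without the second DMSO library (0.52, adjusted p = 0.0393).

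CACNA1G, another T-type pore prominent in thalamic neurons, had 43 and 39 counts with DMSO, 131 and 150 with romidepsin, 760 and 819 with quisinostat, and 52 and 55 with mivebresib. It was called higher with romidepsin (log2 FC 1.71 ± 0.15, 3.27-fold, adjusted p = 0.000163) and with quisinostat (4.08 ± 0.14, 16.96-fold, adjusted p = 7.78e-07). With mivebresib it was at 0.39 ± 0.17 (adjusted p = 0.109). With quisinostat it held 52.0% of the CaV3 level per kb, ahead of CACNA1H, while CACNA1H kept 92.6% with mivebresib. CACNA1G spans 66.4 kb of chromosome 17 (50561068 to 50627474, plus strand, GENCODE 29 on GRCh38) and CACNA1H 68.7 kb of chromosome 16 (1153121 to 1221772, plus strand). CACNA1I, the remaining T-type pore, had no counts in the controls and 15 in each quisinostat library, at least 4.41-fold higher against a floor of 3 counts per library.

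**Figure D3:**
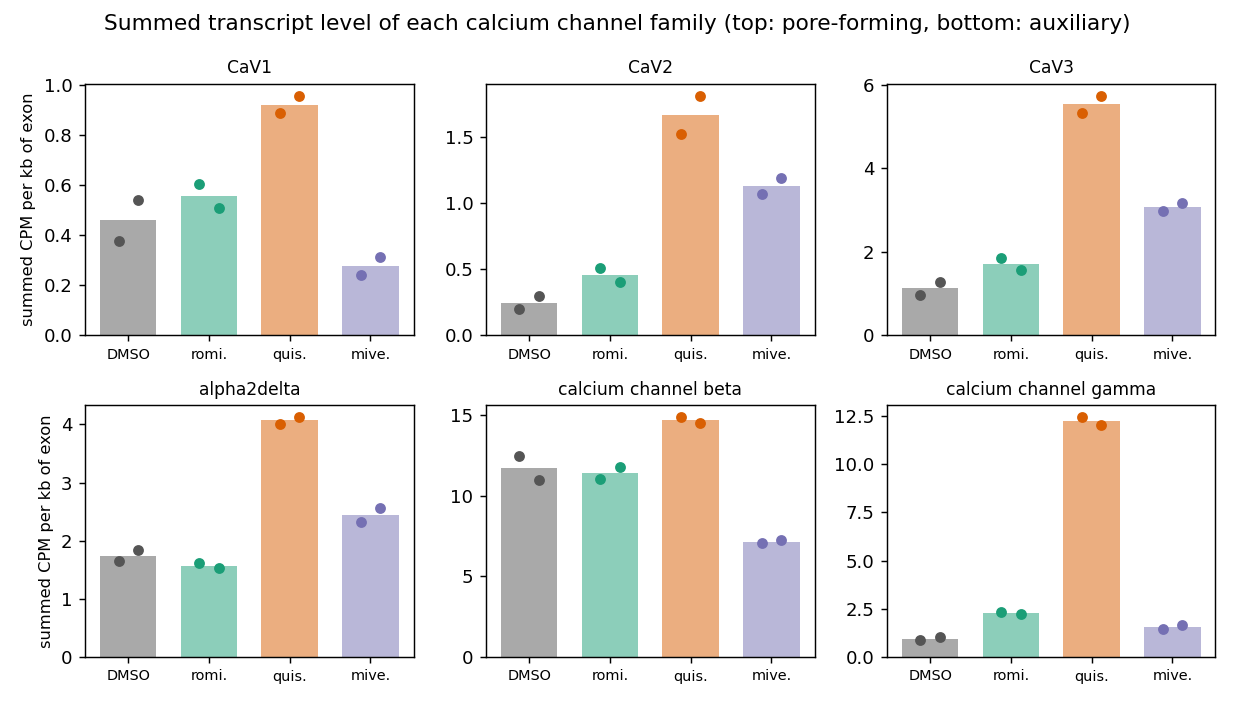
Summed level of each calcium channel subunit family in CPM per kb of exon, with bars for the mean of 2 libraries and points for each library, and a separate vertical scale in each panel. The gamma family has the largest fold difference with quisinostat, from 0.946 to 12.2, and the calcium channel beta family is lower with mivebresib (7.13) than with DMSO (11.7).

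Among the sodium channel beta subunits, SCN3B, found in neurons and heart, had 11 and 22 counts with DMSO, 27 and 11 with romidepsin, 119 and 114 with quisinostat, and 80 and 99 with mivebresib. Romidepsin libraries overlapped the controls, and the other drug libraries lay well above them. It was called higher with quisinostat (log2 FC 2.63 ± 0.38, 6.19-fold, adjusted p = 0.000522) and with mivebresib (2.44 ± 0.38, 5.43-fold, adjusted p = 0.00107). SCN4B, whose cytoplasmic tail contributes to resurgent current, had 9 and 28 counts with DMSO, 30 and 43 with romidepsin, 54 and 76 with quisinostat, and 8 and 15 with mivebresib. It rose with quisinostat (1.62 ± 0.47, adjusted p = 0.0179), but not without the first DMSO library (adjusted p = 0.0595) or the second quisinostat library (adjusted p = 0.116). SCN2B, which lies 9.06 kb from SCN4B, had 1 to 8 counts in any library.

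The alpha2delta subunits, which include the targets of gabapentin, were almost entirely CACNA2D2 in the controls (98.3% of the summed level per kb). CACNA2D2 had 259 and 282 counts with DMSO, 261 and 241 with romidepsin, 618 and 639 with quisinostat, and 358 and 400 with mivebresib. It rose with quisinostat (log2 FC 1.04 ± 0.11, adjusted p = 8.31e-05) and with mivebresib (0.50 ± 0.11, adjusted p = 0.00556), and was at -0.17 ± 0.11 with romidepsin. CACNA2D3, an alpha2delta subunit of neurons, had 3 and 2 counts with DMSO, 3 and 6 with romidepsin, 68 and 64 with quisinostat, and 2 and 2 with mivebresib. It rose with quisinostat, at a ratio of 23.3 to the controls (95% counting interval 9.74 to 72.9, adjusted p = 4.39e-05). With quisinostat CACNA2D2 still held 86.3% of the family. CYB561D2, which overlaps CACNA2D2 on the opposite strand, averaged 556 counts and had a log2 FC of -0.18 with quisinostat (adjusted p = 0.302).

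The calcium channel beta subunits, which bind the alpha1 chain inside the cell and shield it from degradation, had the highest summed level per kb in the controls. CACNB3, typical of brain and smooth muscle, had 1046 and 869 counts with DMSO, 925 and 996 with romidepsin, 1371 and 1328 with quisinostat, and 537 and 566 with mivebresib. Mivebresib libraries were both well under the controls. CACNB3 fell with mivebresib (log2 FC -0.78 ± 0.10, 0.581-fold, adjusted p = 0.000306) and rose with quisinostat (0.32 ± 0.09, adjusted p = 0.0207). The rise with quisinostat did not pass without the second DMSO library or either quisinostat library (log2 FC 0.21, 0.28 and 0.30).

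CACNB2, the main beta subunit of heart, had 2 and 1 counts with DMSO, 14 and 6 with romidepsin, 21 and 27 with quisinostat, and 6 and 8 with mivebresib. Its ratio to the controls was 14.1 with quisinostat (95% counting interval 4.55 to 70.9, adjusted p = 0.00131) and 6.37 with romidepsin (1.89 to 33.5, adjusted p = 0.0284). The romidepsin call was lost without either DMSO library (adjusted p = 0.0554 and 0.0782) or the first romidepsin library (adjusted p = 0.179). With mivebresib the ratio was 4.71 (1.31 to 25.5) and missed the test (adjusted p = 0.0503). It passed under 4 alternatives, namely library size alone, limma-voom and leaving out either romidepsin library (adjusted p from 0.0365 to 0.0494), and missed under the others. CACNB4, a beta subunit of cerebellum and other brain regions, had 6 and 20 counts with DMSO, 41 and 22 with romidepsin, 62 and 79 with quisinostat, and 13 and 11 with mivebresib, and rose with quisinostat (log2 FC 2.25 ± 0.47, adjusted p = 0.00412). CACNB1, the skeletal muscle beta subunit also found in brain, stayed between 83 and 121 counts in all 8 libraries and passed with no drug.

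The gamma subunits had the largest fold difference of the 8 families with quisinostat, from a summed 0.946 ± 0.131 CPM per kb with DMSO to 12.2 ± 0.3 with quisinostat, while romidepsin gave 2.26 ± 0.06 and mivebresib 1.55 ± 0.12 (SD, n = 2). CACNG4, a transmembrane AMPA receptor regulatory protein, had 73 and 79 counts with DMSO, 159 and 165 with romidepsin, 804 and 755 with quisinostat, and 114 and 141 with mivebresib. All drug libraries were above the controls. It rose with romidepsin (log2 FC 1.03 ± 0.14, adjusted p = 0.00132), with quisinostat (3.18 ± 0.13, 9.04-fold, adjusted p = 1.38e-06) and with mivebresib (0.76 ± 0.15, adjusted p = 0.00322).

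CACNG7, a further AMPA receptor partner, was not detected in any DMSO or mivebresib library, had 38 and 27 counts with romidepsin, and had 379 and 382 with quisinostat. Against a floor of 3 counts per library it was at least 10.4-fold higher with romidepsin (adjusted p = 0.000747) and at least 112-fold higher with quisinostat (adjusted p = 7.02e-06). None of its transcript's 31-base words occurs in another annotated gene, and the share of such shared words was at most 7.40% in any of the 24 tested members. CACNG8, a related AMPA receptor regulator of hippocampus, had 15 and 20 counts with DMSO, 21 and 31 with romidepsin, 136 and 133 with quisinostat, and 12 and 9 with mivebresib. It was called higher with quisinostat (log2 FC 2.75 ± 0.26, 6.74-fold, adjusted p = 6.01e-05), and its romidepsin and mivebresib values of 0.50 ± 0.31 and -0.72 ± 0.37 did not pass.

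Romidepsin and quisinostat were given at the same concentration for the same time and were compared directly. The paper found romidepsin more potent than quisinostat at reducing MP38 viability, so equal concentrations need not be doses of equal effect. Quisinostat was above romidepsin for 18 of the 24 tested subunits (10 pore-forming and 8 auxiliary), beside 21.0% of all genes, and below it for none, beside 14.6%. Of the 18, CACNA1I, SCN1A, SCN4A and CACNA2D3 met the filter only through quisinostat, and CACNG7 only through the HDAC inhibitors. That count is therefore a description that favours quisinostat. DESeq2 placed 15 higher and limma-voom 17, both with 0 lower, and no member was lower at an unadjusted p below 0.05 with any tool. The median log2 difference was 1.61 over the pore-forming and 1.17 over the auxiliary subunits, against 0.06 over all genes. Over the members that met the filter in the controls these medians were 1.26 and 1.21. The differences with the smallest adjusted p were CACNA1G (log2 difference 2.37 ± 0.12, adjusted p = 2.61e-05), CACNG4 (2.15 ± 0.12, adjusted p = 2.88e-05) and CACNA1B (2.39 ± 0.16, adjusted p = 4.96e-05). CACNG7 was also higher with quisinostat (3.43 ± 0.20, adjusted p = 0.000131), as was CACNA2D3 (3.72 ± 0.36, adjusted p = 0.000237).

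For 6 subunits the HDAC inhibitors were not separated. The 95% intervals of the log2 difference, quisinostat minus romidepsin, were -0.07 to 1.22 for CACNA1A, -0.31 to 0.70 for CACNA1D, -0.21 to 0.48 for CACNB1 and -0.25 to 1.68 for SCN4B. They were 0.14 to 2.13 for CACNB2 (adjusted p = 0.0735) and 0.10 to 1.99 for CACNB4 (adjusted p = 0.0817), above 0 before adjustment. Mivebresib was given at 1200 nM, so its values stand beside those of the HDAC inhibitors and were not tested against them.

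Some results in this comparison changed when a library was left out. SCN8A did not pass without the second romidepsin or second quisinostat library (log2 difference 0.79 and 0.60). SCN1A, SCN9A, CACNA1I and CACNB3 were among those that also did not pass without at least 1 library. CACNB4, which missed the test with all libraries (adjusted p = 0.0817), passed without either DMSO library (adjusted p = 0.0219 and 0.0194), and CACNB2 passed without the first romidepsin library (adjusted p = 0.0485).

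Several members lie next to each other in the genome, some of them with very different levels. On chromosome 19, CACNG7 (positions 53909335 to 53943941 in GENCODE 29, GRCh38) is followed after 19.1 kb by CACNG8 and after a further 2.07 kb by CACNG6, all on the plus strand. CACNG7 and CACNG8 were called higher with quisinostat, and CACNG6 had at most 1 count in any library. On chromosome 17, CACNG4 (66964910 to 67033398) lies between CACNG5, 79.4 kb away, and CACNG1, 11.2 kb away. CACNG4 rose with each drug, whereas CACNG5 had 1 to 6 counts and CACNG1 had 0 to 3 in any library.

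On chromosome 2, SCN3A, SCN2A, SCN1A, SCN9A and SCN7A lie between positions 165087522 and 166494326. The highest count among these 5 genes in any library was 41, for SCN9A with quisinostat. On chromosome 3, SCN10A lies 29.6 kb from SCN11A, and these genes, both of sensory neurons, had at most 5 and 3 counts.

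**Figure D4:**
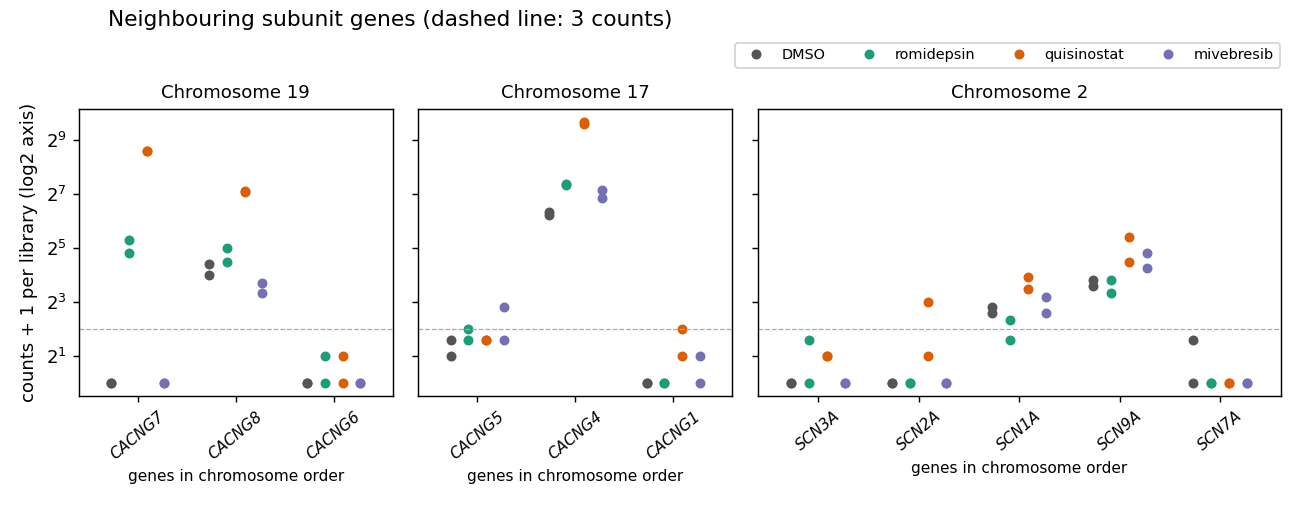
Counts plus 1 in each library, on a log2 axis, for neighbouring subunit genes in chromosome order, with groups as colours and the dashed line at 3 counts. With quisinostat CACNG4 stands above CACNG5 and CACNG1, and CACNG7 stands above CACNG8, which stands above CACNG6. The chromosome 2 sodium channel genes stay at or under 41 counts.

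Of 36 genes that bind or resemble these channels, 28 were tested. By adjusted p alone 7 were higher and 1 lower with romidepsin, beside 15.2% and 15.8% of all genes. With quisinostat 18 were higher and 4 lower, beside 28.0% and 25.1%, and with mivebresib 2 were higher and 6 lower, beside 22.2% and 24.1%. Called higher were 3 with romidepsin (3.77% of all genes) and 12 with quisinostat (11.2%). Of the 28, 9 met the filter on low counts only through a drug group, and all 9 were called higher with quisinostat. Among the 19 that met it in the controls, 9 were higher, 4 lower and 3 called higher with quisinostat, and the median log2 FC was 0.18 with romidepsin, 0.64 with quisinostat and -0.18 with mivebresib.

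Among partners of calcium channels, STAC2, an adaptor that slows inactivation of L-type channels, had 7 and 5 counts with DMSO, 31 and 33 with romidepsin, 144 and 122 with quisinostat, and 16 and 18 with mivebresib. Its log2 FC was 2.33 ± 0.32 with romidepsin (adjusted p = 0.0013), 4.26 ± 0.27 with quisinostat (adjusted p = 7.3e-06) and 1.496 ± 0.36 with mivebresib (adjusted p = 0.009). RIMS2, a presynaptic scaffold that tethers CaV2 channels to release sites, had 157 and 136 counts with DMSO, 392 and 436 with romidepsin, 879 and 842 with quisinostat, and 83 and 67 with mivebresib. RIMS2 rose with both HDAC inhibitors (1.43 ± 0.13 and 2.37 ± 0.13) and fell with mivebresib (-0.95 ± 0.15, adjusted p = 0.0011). GEM, a small GTPase that inhibits calcium channels through their beta subunits, rose by a log2 FC of 0.64 ± 0.11 with romidepsin and 0.78 ± 0.11 with quisinostat. CABP1, a neuronal calcium sensor that modulates calcium channels, had 3 and 2 counts with DMSO and 38 and 23 with quisinostat, and RIMBP2, another presynaptic scaffold, had 0 and 1 against 24 and 32. Both were called higher with quisinostat, as were STAC, STAC3 and REM1, and, among the genes listed as related channels, FAM155A and CATSPER3. All of these but STAC were tested only because they met the filter with quisinostat. STAC3 and CATSPER3 did not pass with DESeq2 (adjusted p = 0.0769 and 0.0829), nor without the first DMSO library (0.0747 and 0.125) or either quisinostat library.

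Among partners of sodium channels, SPTBN4 and ANK3, the spectrin and ankyrin that anchor sodium channels at the axon initial segment, rose with quisinostat by log2 FC of 3.46 ± 0.40 and 3.36 ± 0.43, and neither met the filter in the controls. SPTBN4 also rose with romidepsin (2.54 ± 0.43, adjusted p = 0.0033), and FGF11, an intracellular fibroblast growth factor homologue, was called higher with romidepsin (1.64 ± 0.34, adjusted p = 0.0078) but did not pass without the second romidepsin library (adjusted p = 0.0547). FGF13, a further homologue that binds sodium channel tails, rose with quisinostat (0.72 ± 0.09) and fell with mivebresib (-1.39 ± 0.10, adjusted p = 1.7e-05). NEDD4L, a ubiquitin ligase that removes sodium channels from the membrane, rose with romidepsin (0.73 ± 0.09) but fell with quisinostat (-0.54 ± 0.09) and mivebresib (-0.32 ± 0.09), the last not without either mivebresib library (adjusted p = 0.0924 and 0.0899). RANGRF, which helps sodium channels reach the cell surface, fell with all 3 drugs, with log2 FC of -0.68 ± 0.19, -0.99 ± 0.19 and -1.18 ± 0.20 for romidepsin, quisinostat and mivebresib. The romidepsin value did not pass without the first DMSO library (-0.34, adjusted p = 0.154), either romidepsin library (0.127 and 0.102) or either quisinostat library (0.0514 and 0.0513), nor with only the 4 libraries of the comparison (0.0983).

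Among related channels, NALCN, the sodium leak channel, had 1 to 4 counts in any library, while its partner FAM155B had 150 and 153 counts with DMSO, 423 and 368 with romidepsin, 600 and 587 with quisinostat, and 226 and 163 with mivebresib. FAM155B rose with romidepsin (log2 FC 1.32 ± 0.16) and quisinostat (1.79 ± 0.16). UNC80, which also belongs to the NALCN complex, rose with quisinostat (1.39 ± 0.33), and UNC79 rose with mivebresib (1.25 ± 0.32). UNC80 did not pass without the second quisinostat library (adjusted p = 0.0689), nor UNC79 without the first mivebresib library (adjusted p = 0.0838). GEM, FGF13, NEDD4L, RANGRF, UNC80 and UNC79 were not called with any drug, NALCN was not tested, and all of these were named after their values were seen.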

How the data were processed

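Bulk RNA of MP38 cells was examined in 4 groups of 2 libraries, mapped to treatment by the sample labels. The authors ran the reads through BioJupies and deposited counts per gene symbol with no normalization, and a table of log10 values that equals log10(CPM + 1) of the same counts and was used only for that check. A quantile-normalized table was not used because its scale is not named. The submitters' processing notes name the build hg38. The aligner, counter and annotation are not given in the sources used here. Library preparation kept strand, but whether counting did is not given, so genes that overlap on opposite strands may have shared reads.

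All 8 libraries were fitted together with edgeR 4.0.16 (R 4.3.3): TMM scaling, filterByExpr by group (about 10 counts in 2 libraries), the quasi-likelihood test without a replicate block, and Benjamini-Hochberg adjustment over the 15085 genes tested. The biological coefficient of variation was 0.0938. A member was called where the adjusted p was below 0.05 with a log2 FC past 1.5, and "rose" or "fell" is written at the adjusted p alone. P-values rest on the spread between 2 wells per group, estimated jointly over all groups. The wider spread between the DMSO libraries was thus pooled with that of the drug groups. A library of 3 counts or fewer was treated as at the floor: folds against controls at 0 are bounds, and ratios against 1 to 3 control counts per library carry 95% exact counting intervals, which cover counting error only. Gene positions, exon lengths and overlaps came from GENCODE 29, and start regions from RefSeq. On counts simulated for quisinostat against DMSO over 14694 genes, with 200 changed, the test recovered 98% of 2-fold and 100% of 4-fold changes with 16 false calls. The changed genes all had a mean of at least 1 CPM, so the recovery does not cover weaker members such as SCN9A. The same spread was set for every gene and group, so the wider spread between the DMSO libraries was not simulated. Alternatives were DESeq2 1.42.0, limma-voom (limma 3.58.1), RLE factors, library size alone, other filters, only the 4 libraries of a comparison, a replicate block, no fold threshold, and each library left out. Counts per library are printed for called members averaging at least 20 counts in a group and for the 3 highest control members per class by level per kb. Scripts used Python 3.11.15, pandas 2.3.3, scipy 1.17.1 and matplotlib 3.10.9. The members, the partner list and the marker lists were chosen with earlier results of these data known. Protein sequences are not shown. Some members enter the counts, medians and family sums but are not reported individually here.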

Additional observations from a re-analysis of the deposited data

How the results depend on the processing

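The 48 single-subunit results past the adjusted p, over the 3 drugs and the comparison of quisinostat with romidepsin, gave 372 values under alternatives that kept all libraries, of which 359 stayed past it and none changed sign. With 1 library left out, 346 of 384 values stayed past it and none changed sign. By adjusted p alone, 6 subunits were higher with romidepsin, and 6 higher and 2 lower with mivebresib. Leaving out single libraries moved the subunits called higher with romidepsin from 2 to 5 and those called lower with mivebresib from 0 to 1. The pore-forming median log2 FC then ran from 0.186 to 0.823 with romidepsin, 1.57 to 1.99 with quisinostat and 0.0173 to 0.593 with mivebresib, and the auxiliary median with quisinostat from 1.89 to 3.11. Without a filter on low counts, which adds members near 0 counts, the pore-forming medians were 0.0362, 1.22 and -0.000105 for romidepsin, quisinostat and mivebresib and the auxiliary median with quisinostat was 1.91. Under a minimum mean CPM of 1, which drops weakly expressed members, the auxiliary median with quisinostat was 1.98, the pore-forming median with mivebresib was 0.181 and 9 partner genes were higher with quisinostat. With only the 4 libraries of a comparison, 0 partner genes were lower with romidepsin and 3 lower with mivebresib; over single libraries left out, 0 to 5 were lower with romidepsin and 1 to 4 higher with mivebresib. The cause of these shifts was not tested.

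Changes of sign were confined, among the single subunits counted here, to values that did not pass the test. With romidepsin CACNB3 changed sign with library size alone (0.0121). With single libraries left out, the romidepsin ranges that crossed 0 were -0.105 to 0.313 for CACNA1C, -0.0276 to 0.134 for CACNB1, -0.166 to 0.0801 for CACNB3, -0.644 to 0.739 for SCN3B and -0.476 to 0.0526 for SCN9A. With mivebresib they were -0.404 to 0.395 for CACNA1A, -0.721 to 1.02 for CACNB4 (0.13 with limma-voom), -1.27 to 0.382 for SCN4B and -0.134 to 0.555 for SCN1A.

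Sample numbers are shared across groups, but correlations of same-numbered deviations ran from -0.162 to 0.158, so they were not taken as a pairing. With the number as a replicate block, 3, 14 and 3 subunits were called higher with romidepsin, quisinostat and mivebresib, as without it, 16 were higher with quisinostat than romidepsin (CACNA1I and SCN1A no longer passed), and SCN8A passed as lower with mivebresib (adjusted p = 0.0473). Depth limits members under about 10 counts, where a difference was not detectable, and having 2 libraries per group limits the others.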
